A study of Mus musculus with 4 samples.

Results

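The 10 chemokine ligand genes described here were followed across the cell classes of mouse cortex late after stroke: Ccl2, Ccl3, Ccl4, Ccl7, Ccl12, Cxcl2, Cxcl9, Cxcl10, Cxcl12 and Cxcl16. They were taken by symbol from the gene tables of the libraries, where they are 10 of 32285 genes. They were chosen as chemokine ligands and not by a threshold on their values, but with earlier results of these data known. A further 26 chemokine ligands of the gene tables were listed apart from them. For each gene the molecules counted (unique molecular identifiers, UMIs) were summed by cell class and library, and the class with the highest level and the class with the most UMIs were recorded. All 10 were measured and are accounted for below.

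The libraries were droplet-based single-cell RNA sequencing (Chromium 3′ chemistry) of the infarct core with about 2 mm of adjoining cortex from 10-month-old C57BL/6N males. Stroke was made by occluding the middle cerebral artery at its distal end (dMCAO). Antibodies were given for 10 weeks, and each of the 4 groups was 1 library from the pooled tissue of 4 to 5 mice. The groups were sham surgery with an isotype control antibody (sham isotype), stroke with the isotype control (stroke isotype), stroke with an antibody to VCAM1, an adhesion molecule of activated endothelium, and stroke with an antibody to VLA4, the integrin on leukocytes that binds VCAM1. Every group therefore had surgery and an antibody, and no group was untreated. Cells were stained for CD31, an endothelial surface protein, and CD45, a leukocyte surface protein, and dead cells were excluded. Which of the stained fractions were collected is not stated, so a share of UMIs by class reflects the cells captured as well as the tissue.

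Chemokines are small secreted proteins that steer leukocytes through G protein-coupled receptors. The ligands Ccl2, Ccl7 and Ccl12 act on CCR2 of monocytes, Cxcl2 on CXCR2 of neutrophils, and Cxcl9 and Cxcl10 on CXCR3 of activated T cells. Cxcl12 acts on CXCR4 and on the scavenger receptor ACKR3, and Cxcl16, which is made as a membrane-anchored protein, acts on CXCR6 of T cells. Several of these genes are textbook targets of NF-kappaB, and Cxcl9 and Cxcl10 are textbook interferon targets. In brain, microglia are the resident macrophages of the parenchyma, and border macrophages lie in the meninges and around vessels.

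In the GENCODE M21 annotation (GRCm38), 6 of the 10 genes lie on chromosome 11 and 3 on chromosome 5. Ccl2 (chr11:82035571-82037453, plus strand) ends 8258 bases before Ccl7 (chr11:82045712-82047525, plus strand), and Ccl12 (chr11:82101845-82103400, plus strand) starts 54319 bases further on. Ccl3 (chr11:83647844-83649355, minus strand) and Ccl4 (chr11:83662584-83664683, plus strand) are 13228 bases apart and point away from each other. Cxcl16 is at chr11:70453983-70459984 (minus strand). On chromosome 5, Cxcl9 (chr5:92321347-92328079, minus strand) and Cxcl10 (chr5:92346638-92348889, minus strand) are 18558 bases apart, and Cxcl2 is at chr5:90903871-90905938 (plus strand). Cxcl12 is at chr6:117168535-117181367 (plus strand). Ccl2 overlaps Gm17268, Cxcl10 overlaps Art3 and Cxcl16 overlaps Zmynd15, each on the opposite strand. Whether counting used strand is not given in the sources used here, so reads of these pairs may not be told apart.

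RefSeq promoter sequences (GRCm38.p6) were found for 6 of the 10 genes. The 4 shown stand for the patterns described below: Cxcl10 and Cxcl2, found in few cells at many UMIs, Ccl3, found in many myeloid cells, and Cxcl12, the endothelial ligand. Each run is the 250 bases before the annotated start, 5′ to 3′ on the gene's strand, and capitals mark matches to 3 motifs searched on both strands.
Cxcl10 (chr5:92348890-92349139, minus strand): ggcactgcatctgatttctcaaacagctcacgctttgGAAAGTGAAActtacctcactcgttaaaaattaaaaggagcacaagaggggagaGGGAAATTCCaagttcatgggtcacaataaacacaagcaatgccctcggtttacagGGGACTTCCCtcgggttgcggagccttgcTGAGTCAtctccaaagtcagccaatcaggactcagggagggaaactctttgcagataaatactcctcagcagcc
Cxcl2 (chr5:90903649-90903898, plus strand): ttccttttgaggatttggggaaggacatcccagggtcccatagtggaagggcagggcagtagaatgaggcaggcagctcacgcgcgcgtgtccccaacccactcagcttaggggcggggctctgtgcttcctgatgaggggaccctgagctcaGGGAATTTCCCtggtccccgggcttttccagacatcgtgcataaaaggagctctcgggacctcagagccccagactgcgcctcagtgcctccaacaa
Ccl3 (chr11:83649379-83649628, minus strand): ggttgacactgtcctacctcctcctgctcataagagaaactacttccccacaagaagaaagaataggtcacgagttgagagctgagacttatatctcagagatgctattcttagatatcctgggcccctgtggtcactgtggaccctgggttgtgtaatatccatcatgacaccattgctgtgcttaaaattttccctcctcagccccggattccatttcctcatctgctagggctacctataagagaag
Cxcl12 (chr6:117168285-117168534, plus strand): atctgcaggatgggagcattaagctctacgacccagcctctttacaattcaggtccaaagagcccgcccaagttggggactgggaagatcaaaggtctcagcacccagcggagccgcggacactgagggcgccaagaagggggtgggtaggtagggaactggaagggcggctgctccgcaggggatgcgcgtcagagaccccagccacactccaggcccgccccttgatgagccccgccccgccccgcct
In Cxcl10 the capitals are the core of an interferon-stimulated response element (GAAA, any 2 bases, GAAA) at -213 to -204, the kappaB consensus bound by NF-kappaB at -159 to -150 and at -103 to -94, and an AP-1 site (TGANTCA) at -74 to -68, with positions counted from the start. In Cxcl2 they are a pair of overlapping kappaB matches on opposite strands at -97 to -88 and -96 to -87. Ccl3 and Cxcl12 held none of the 3 motifs in this window, and neither did Ccl12 or Cxcl9. Of 32851 RefSeq promoters of this length, 3.90% held a kappaB match, 2.98% the interferon element and 6.75% the AP-1 motif.

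The deposited matrices held 1541, 2891, 4751 and 6361 barcodes in sham isotype, stroke isotype, anti-VCAM1 and anti-VLA4, the order used for every run of 4 values here. After filtering and doublet removal, 15219 of 15544 cells were kept, with median UMIs of 5466, 5090, 4516.5 and 4719 per cell. Sham isotype and stroke isotype shared 53 barcodes, against 1 to 7 in the other pairs, and the median UMI count of the shared barcodes was 18200 in sham isotype and 603 in stroke isotype. They held 2132 and 137 UMIs of the 10 genes, and several stroke ratios are given with and without them. Clusters were named from marker genes, with the 10 chemokines left out of clustering. Named classes with enough cells for a ratio were microglia-like (689, 1465, 1798 and 2433 cells), endothelial-like (453, 526, 1888 and 2369), border macrophage-like (116, 196, 64 and 90) and T cell-like (73, 247, 112 and 201). UMIs of all 9 border macrophage markers were counted in the border macrophage-like class of every library. The 9 summed to 3918 to 5194 CPM there (UMIs scaled to 1000000 in each class and library), against 173 to 197 CPM in microglia-like cells. These sums do not show how many of the 9 were found in 25% of the cells. A class name needed only 3 markers found in that share of a cluster and higher there than elsewhere. With 1 library per group there is no replicate and no test. Every interval below is a 95% interval for counting error only. It leaves out the spread among cells and the spread among mice, and the latter was not measured.

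Of the 4 classes ranked, border macrophage-like cells had the highest level of 9 of the 10 ligands, and endothelial-like cells had the highest level of Cxcl12. Ranked by the mean over libraries among the 4 classes, 0 of the 10 were highest in microglia-like cells. The margin over the next class differed widely. Ccl7 was 295 times the microglia-like level, Ccl2 9.68 times, Ccl12 5.73 times and Cxcl16 4.78 times, whereas Ccl3 was 1.63 times and Ccl4 1.32 times. Ccl4 was the closest call: border macrophage-like cells led in 3 of 4 libraries. The other ligand without a lead in every library was Cxcl9, which had 0 UMIs in border macrophage-like cells of anti-VCAM1, where 3 UMIs would have been 6.83 CPM. Classes with under 20 cells in a library were not ranked. Among them dendritic-like cells had Cxcl9 at 23.8, 562, 0 and 10.5 CPM, against 160, 113, 0 and 268 CPM in border macrophage-like cells. The dendritic-like mean of 149 CPM was above the border macrophage-like mean of 135 CPM. Astrocyte-like cells had Cxcl10 at 0, 0, 0 and 959 CPM, the last from 171 UMIs in 1 cell, and their mean of 240 CPM was above the 117 CPM of border macrophage-like cells.

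**Figure D1:**
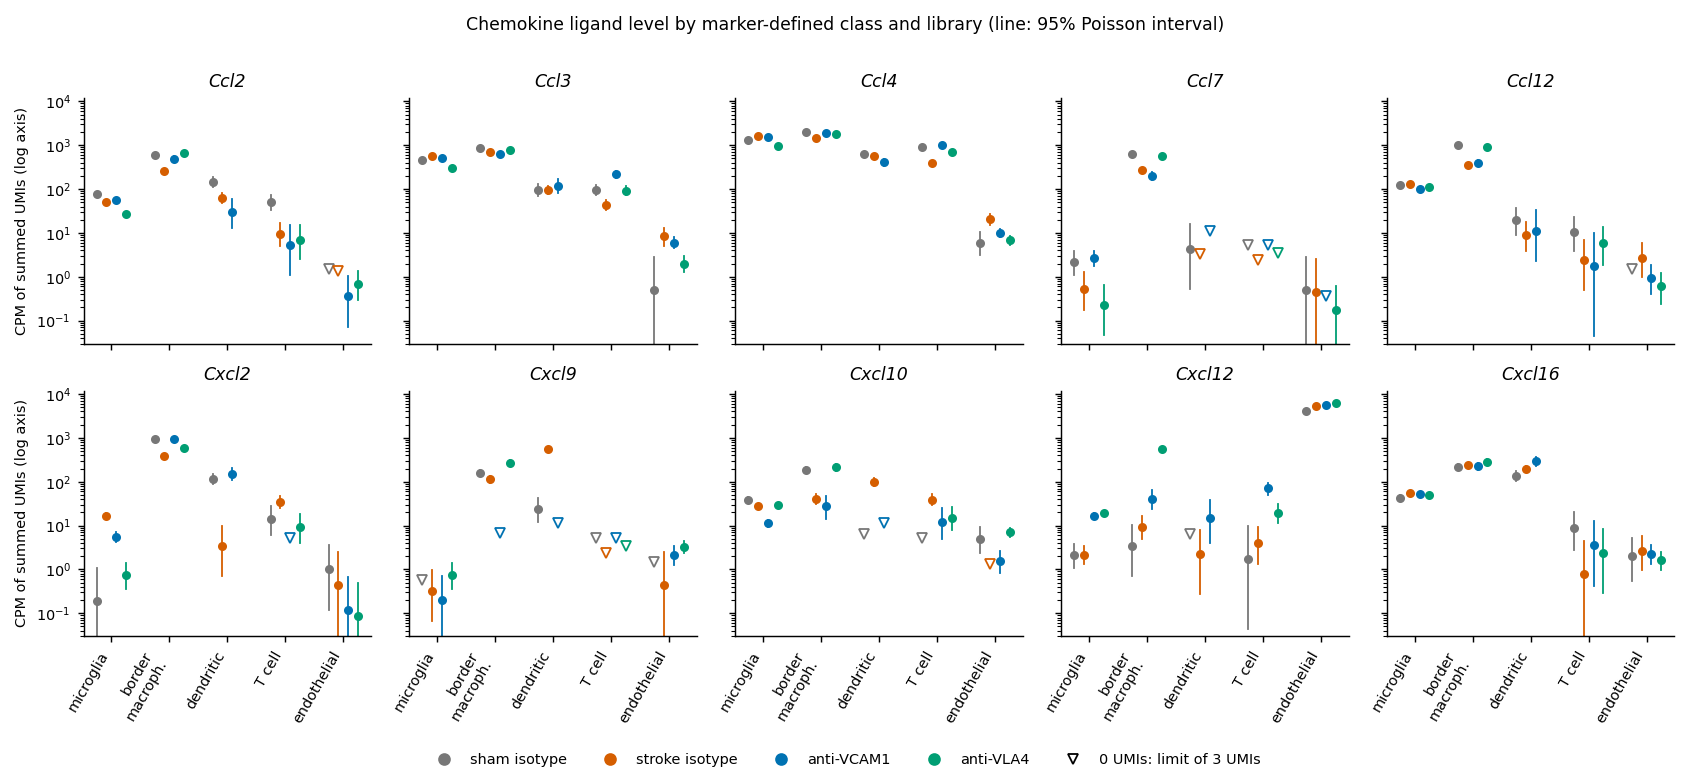
Level of each of the 10 ligands by cell class and library, where the class had at least 20 cells, as CPM on a log axis with 95% Poisson intervals and open triangles for 0 UMIs, drawn at the level of 3 UMIs. Averaged over libraries, border macrophage-like cells are highest of the 4 ranked classes for 9 ligands, though not in stroke isotype for Ccl4 or in anti-VCAM1 for Cxcl9. Endothelial-like cells are highest for Cxcl12, where they run from 4214 to 6126 CPM, while dendritic-like cells, shown but not ranked, reach 562 CPM of Cxcl9 in stroke isotype.

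Microglia-like cells held the largest part of the UMIs of 6 ligands, summed over 6385 such cells against 466 border macrophage-like cells. They held 82.9% of Ccl3, 83.7% of Ccl4, 67.3% of Ccl12, 61.0% of Cxcl16, 53.2% of Cxcl10 and 52.2% of Ccl2 UMIs over all libraries. The leading source differed by library for Ccl2, Ccl12 and Cxcl9. In sham isotype border macrophage-like cells held more Ccl2 (522 against 386 UMIs) and more Ccl12 (886 against 629) than microglia-like cells, and in anti-VLA4 Ccl2 was nearly even (362 against 366). Border macrophage-like cells held 96.1% of Ccl7 and 81.1% of Cxcl2 UMIs. Dendritic-like cells, the antigen-presenting class (31, 79, 24 and 19 cells), held 50.7% of Cxcl9 UMIs, but led only in stroke isotype. In sham isotype and anti-VLA4 border macrophage-like cells held more Cxcl9, at 139 and 142 UMIs. Endothelial-like cells held 72.7% of Cxcl12 UMIs. A further 19.9% of Cxcl12 UMIs lay in an unnamed cluster that carried all 10 endothelial markers and was led by the genes Gkn3 and Stmn2. The share of border macrophage-like cells among kept cells was 7.65%, 6.92%, 1.37% and 1.45%, so the same level per cell gave fewer UMIs in the antibody libraries.

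**Figure D2:**
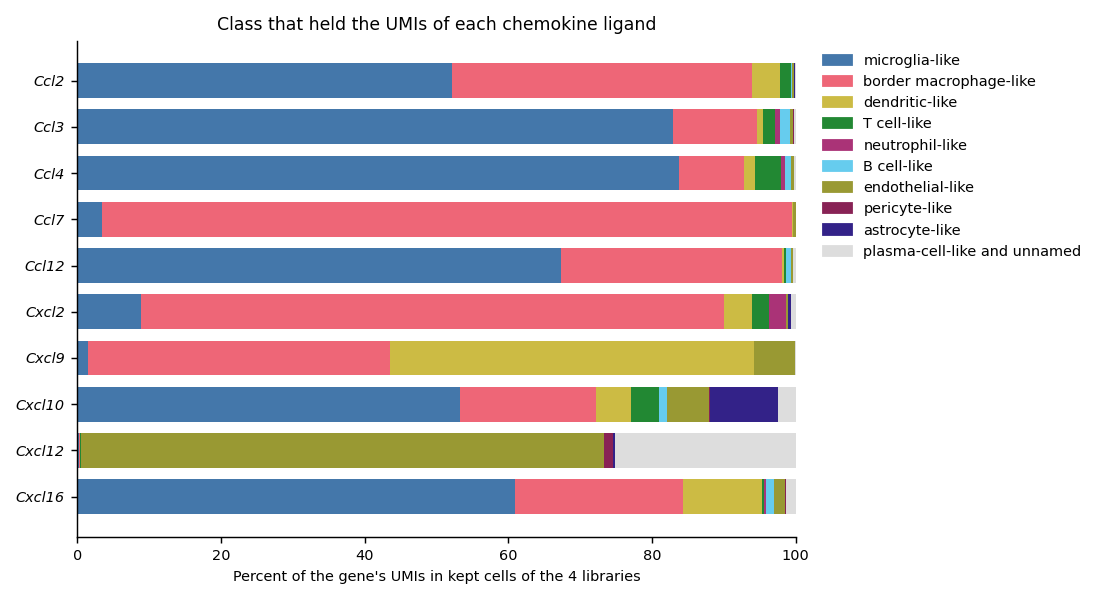
Share of each ligand's UMIs, in percent over the 4 libraries, by cell class. Microglia-like cells make up most of the bar for 6 ligands, border macrophage-like cells for Ccl7 and Cxcl2, dendritic-like cells for Cxcl9 and endothelial-like cells for Cxcl12. Dendritic-like cells led for Cxcl9 in stroke isotype only.

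The macrophage inflammatory protein genes Ccl3 and Ccl4 were the most abundant chemokines of microglia-like cells. Both were higher in stroke isotype than in sham isotype. Both were lower in anti-VLA4 than in stroke isotype, and lower there than in sham isotype as well. In microglia-like cells Ccl3 was at 469, 556, 499 and 295 CPM, from 2400, 5149, 5004 and 3934 UMIs. Ccl4 was at 1328, 1633, 1528 and 978 CPM, from 6795, 15130, 15322 and 13039 UMIs. Stroke isotype was the highest library and anti-VLA4 the lowest for both genes, and the counting intervals of those libraries did not overlap.

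The log2 ratio of stroke isotype to sham isotype in microglia-like cells was 0.24 (0.17 to 0.32) for Ccl3 and 0.30 (0.26 to 0.34) for Ccl4. Without the shared barcodes the ratios were 0.27 and 0.26. The ratio of anti-VLA4 to stroke isotype was -0.91 (-0.97 to -0.85) for Ccl3 and -0.74 (-0.77 to -0.71) for Ccl4. For anti-VCAM1 over stroke isotype it was -0.15 (-0.21 to -0.10) and -0.10 (-0.13 to -0.06). None of these reached the log2 fold of 1 used to call a difference. The Ccl3 ratio for anti-VLA4 did pass it in some other settings, at -1.04 after thinning and -1.05 at clustering resolution 0.5. Both antibody comparisons share the stroke isotype library as their control.

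The share of microglia-like cells with a UMI followed the same order. After each cell was thinned to 1000 UMIs, Ccl3 was found in 17.1%, 25.3%, 23.3% and 13.9% of cells, against 33.2%, 41.9%, 39.4% and 27.1% before thinning. Ccl4 was found in 30.03%, 38.9%, 36.5% and 26.0%, against 44.6%, 53.8%, 49.9% and 37.6% before thinning. Endothelial-like cells, which should lack both, had thinned shares of 0% to 1.01% for Ccl3 and 0.685% to 2.43% for Ccl4. Median depth was 5226 to 7344 UMIs in microglia-like cells and 3722 to 4143 in endothelial-like cells.

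Microglia-like cells fell into 6 clusters, and the levels of Ccl4 spanned a wider range between clusters than between libraries. Ccl4 ran from 277 to 520 CPM in cluster 4, the lowest, and from 2452 to 5128 CPM in cluster 12, the highest. Cluster 12 held 2.03%, 7.10%, 6.73% and 8.01% of microglia-like cells. Anti-VLA4 was below stroke isotype for Ccl3 in 6 of 6 clusters (log2 -0.89 to -0.45) and for Ccl4 in 6 of 6 (-0.95 to -0.16). With the cluster mix held fixed, the ratios were -0.66 for Ccl3 and -0.50 for Ccl4. For stroke isotype over sham isotype, Ccl4 was higher in 5 of the 5 clusters with enough cells and Ccl3 in 4 of 5, with fixed-mix ratios of 0.32 and 0.31. Cluster 12, with 14 sham isotype cells, was not among the 5 and went the other way, from 2280 CPM in sham isotype to 1204 in stroke isotype for Ccl3 and from 5128 to 3179 for Ccl4.

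**Figure D3:**
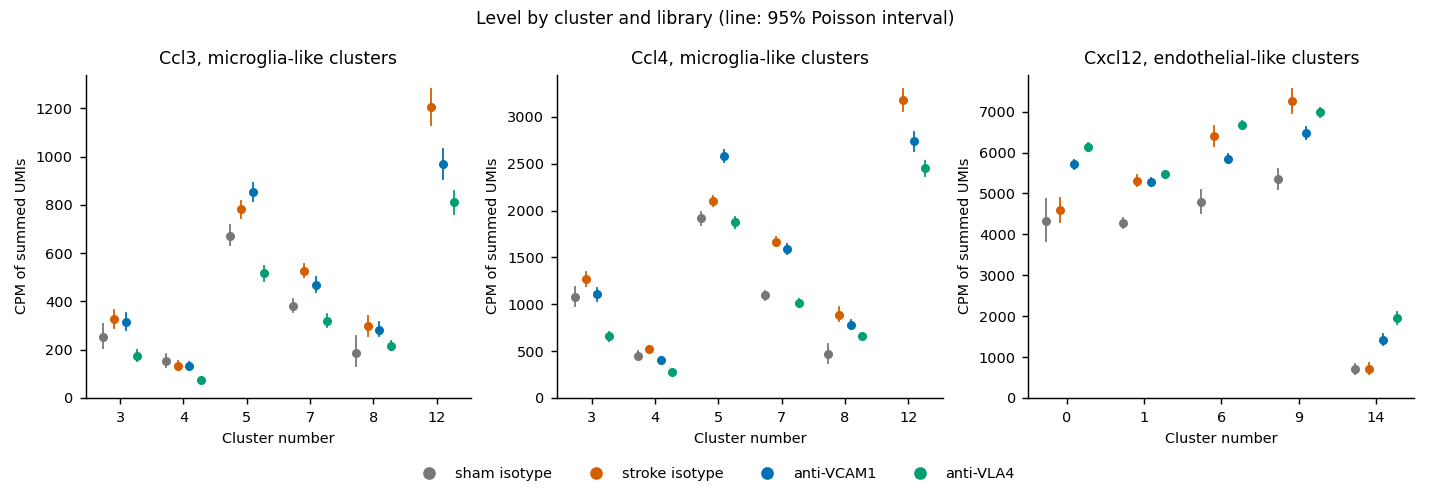
Level by cluster and library, as CPM, of Ccl3 and Ccl4 in the 6 microglia-like clusters and of Cxcl12 in the 5 endothelial-like clusters. The anti-VLA4 points of Ccl3 and Ccl4 lie below the stroke isotype points in each of the 6 clusters, and Cxcl12 is lowest in cluster 14 in every library.

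The pair was found together in the same cells. Among microglia-like cells with a Ccl3 UMI after thinning, 69.2%, 66.5%, 69.5% and 64.3% also had Ccl4, against 22.0%, 29.5%, 26.5% and 19.8% of cells without Ccl3. Border macrophage-like cells gave 58.5%, 66.7%, 76.5% and 75.0%, against 11.1% to 33.1% of cells without Ccl3. Each cell was cut to the same depth, so depth per cell did not differ between the cells compared.

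Border macrophage-like cells held both ligands at levels that differed less between libraries than the CCR2 ligands described next. Ccl3 was at 865, 699, 637 and 767 CPM and Ccl4 at 2031, 1463, 1921 and 1829 CPM. The stroke isotype level was below sham isotype by log2 -0.31 (-0.45 to -0.17) for Ccl3 and -0.47 (-0.57 to -0.38) for Ccl4. Without shared barcodes the ratios were -0.53 and -0.64. After thinning they were -0.55 and -0.16, and without the top cell -0.24 and -0.31. In sham isotype 1 cell held 303 of the 1766 Ccl4 UMIs. In each of these settings stroke isotype stayed below sham isotype. That is the opposite direction to microglia-like cells, and the difference between the classes has no test. Anti-VLA4 stood at 0.13 for Ccl3 and 0.32 (0.21 to 0.44) for Ccl4 over stroke isotype.

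T cell-like cells held Ccl4, a known product of cytotoxic T cells, far above Ccl3. Ccl4 was at 913, 386, 1019 and 696 CPM there and Ccl3 at 96.4, 44.0, 216 and 92.1 CPM. The stroke isotype library was the lowest for both. The log2 ratio of stroke isotype to sham isotype was -1.24 (-1.42 to -1.06) for Ccl4, or -1.34 without shared barcodes, and -1.11 (-1.70 to -0.56) for Ccl3. Over stroke isotype, anti-VCAM1 was higher by 1.40 (1.22 to 1.58) for Ccl4 and 2.27 (1.83 to 2.78) for Ccl3, and thinned values were 0.67 and 1.03. Anti-VLA4 was higher by 0.85 (0.68 to 1.03) and 1.05 (0.55 to 1.59), thinned 0.47 and 0.50.

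Microglial markers were also present in T cell-like cells at levels that differed by library. Their median level in T cell-like cells was 20.5%, 6.49%, 13.3% and 2.77% of the microglia-like level. Ccl3 there was at 20.6%, 7.92%, 43.4% and 31.2% of its microglia-like level, and Ccl4 at 68.8%, 23.6%, 66.7% and 71.2%. In every library Ccl4 was above the highest single marker, whereas Ccl3 in sham isotype and stroke isotype was near the marker median. The 10 microglial markers summed to 3079, 982, 2041 and 422 CPM in T cell-like cells, lower in stroke isotype than in sham isotype and anti-VCAM1, as Ccl3 and Ccl4 were, but higher than in anti-VLA4, where Ccl3 and Ccl4 were higher. Their part in the differences between libraries was not tested.

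The ratio of the 2 ligands differed between classes. Over all libraries there were 3.05 (2.997 to 3.10) Ccl4 UMIs per Ccl3 UMI in microglia-like cells, 2.34 (2.23 to 2.45) in border macrophage-like cells, 6.98 (6.20 to 7.89) in T cell-like cells and 5.54 (4.70 to 6.56) in dendritic-like cells. In microglia-like cells the 4 libraries gave 2.83, 2.94, 3.06 and 3.31. T cell-like cells gave 9.47, 8.76, 4.71 and 7.56, each above every microglia-like value. UMIs of 3′ libraries do not scale with transcript length, but capture can differ by gene, so the ratio compares classes and not the genes' absolute output.

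**Figure D4:**
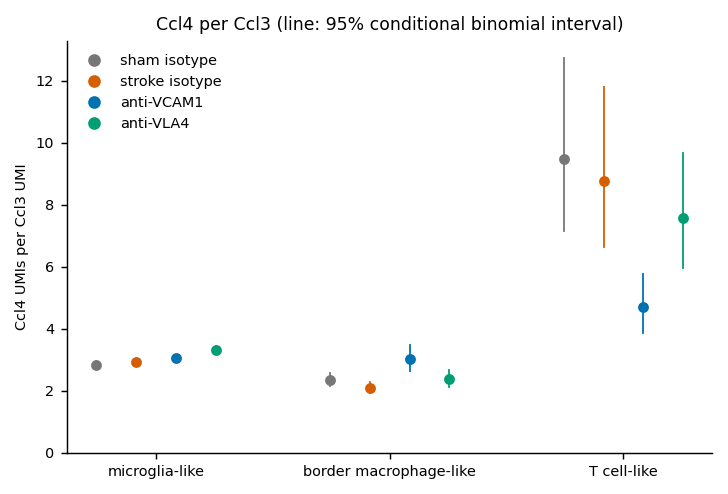
Ccl4 UMIs per Ccl3 UMI by class and library, on a linear axis from 0, with 95% conditional binomial intervals. The 4 T cell-like points run from 4.71 to 9.47, all above the microglia-like points at 2.83 to 3.31 and the border macrophage-like points at 2.09 to 3.01.

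The CCR2 ligands Ccl2, Ccl7 and Ccl12, which draw monocytes, were led by border macrophage-like cells. All 3 were lower there in stroke isotype than in sham isotype and higher in anti-VLA4 than in stroke isotype, each by a log2 of more than 1. Ccl2 was at 600.4, 259.5, 492 and 682 CPM, from 522, 332, 216 and 362 UMIs. Ccl7 was at 618, 276, 203 and 556 CPM, from 537, 353, 89 and 295 UMIs. Ccl12 was at 1019, 360, 387 and 931 CPM, from 886, 461, 170 and 494 UMIs. Sham isotype and anti-VLA4 were the higher pair for all 3 genes, stroke isotype was the lowest for Ccl2 and Ccl12, and anti-VCAM1 the lowest for Ccl7.

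For stroke isotype over sham isotype the log2 ratios were -1.21 (-1.41 to -1.01) for Ccl2, -1.16 (-1.36 to -0.97) for Ccl7 and -1.497 (-1.67 to -1.34) for Ccl12. Without shared barcodes they were -1.47, -1.30 and -1.76. For anti-VLA4 over stroke isotype they were 1.39 (1.18 to 1.61), 1.01 (0.78 to 1.24) and 1.37 (1.18 to 1.56). Ccl7 stood at the threshold, and was 1.00 without its top cell and 0.82 after thinning. For anti-VCAM1 over stroke isotype Ccl2 was at 0.92 (0.67 to 1.17), or 0.48 without its top cell. Ccl7 was at -0.44, or -1.02 without its top cell and -0.70 after thinning. Ccl12 was at 0.10, or 0.07 without its top cell and 1.03 after thinning.

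The share of border macrophage-like cells with a UMI after thinning gave a like order. It was 26.5%, 15.8%, 21.0% and 29.1% for Ccl2, 23.9%, 11.6%, 8.06% and 19.8% for Ccl7, and 25.7%, 20.5%, 22.6% and 29.1% for Ccl12. Ccl7 UMIs came from 33, 37, 11 and 23 cells. Of cells with Ccl2, 70.0%, 33.3%, 15.4% and 48.0% also had Ccl7, against 6.12% to 8.20% of cells without Ccl2. Ccl12 was found in 36.7% to 56.0% of cells with Ccl2, against 16.3% to 18.0% of those without. Markers of monocytes summed to 687, 999, 753 and 305 CPM in this class, highest in stroke isotype, and their part in the lower CCR2 ligands was not tested.

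In microglia-like cells Ccl2 and Ccl12 were present and Ccl7 was nearly absent. Ccl2 was at 75.4, 51.4, 55.9 and 27.4 CPM, Ccl12 at 123, 131, 103 and 114 CPM, and Ccl7 at 0.225 to 2.69 CPM, from 11, 5, 27 and 3 UMIs. Ccl2 was lower in stroke isotype than in sham isotype by log2 -0.55 (-0.75 to -0.36), and the thinned ratio was -0.06. It was lower again in anti-VLA4, at -0.88 (-1.11 to -0.70) over stroke isotype and -1.20 after thinning, in 5 of 6 clusters. For Ccl12 the stroke ratio was 0.09 (-0.05 to 0.23), its anti-VCAM1 ratio -0.34 (-0.46 to -0.22) and its anti-VLA4 ratio -0.19 (-0.30 to -0.08). Without shared barcodes the Ccl12 stroke ratio was 0.27. With the cluster mix fixed, the stroke ratio was 0.44 for Ccl12, higher in 5 of 5 clusters, and -0.39 for Ccl2, higher in 2 and lower in 2. So anti-VLA4 was below stroke isotype for Ccl2 in microglia-like cells and above it in border macrophage-like cells, a difference with no test across libraries. Endothelial-like cells had Ccl2 at 0 to 0.688 CPM, at most 8 Ccl12 UMIs and at most 2 Ccl7 UMIs in any library.

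Cxcl2, a neutrophil attractant, was highest in border macrophage-like cells. Its level there was 920, 383, 963 and 600 CPM, from 800, 490, 423 and 318 UMIs, and stroke isotype was the lowest library. The log2 ratio was -1.26 (-1.43 to -1.10) for stroke, or -1.45 without shared barcodes, while anti-VCAM1 stood at 1.33 (1.14 to 1.52) and anti-VLA4 at 0.65 (0.44 to 0.85) over stroke isotype. The top single cell held 103 to 135 UMIs in each library, and without it the ratios were -1.40, 1.13 and 0.32. Neutrophil-like cells (18, 21, 24 and 7 cells) had 72.1 to 246 CPM of Cxcl2, and dendritic-like cells 3.37 to 150 CPM. In microglia-like cells there were 1, 154, 56 and 10 Cxcl2 UMIs, of which 138 of 154 and 33 of 56 lay in 1 cell each. The stroke ratio there, 3.88, was 1.45 without the top cell, and the anti-VCAM1 ratio, -1.42, turned to 0.27.

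The CXCR3 ligands Cxcl9 and Cxcl10 came from few cells with many UMIs each. In border macrophage-like cells Cxcl10 was at 184, 40.7, 27.3 and 217 CPM, from 160, 52, 12 and 115 UMIs in 9, 11, 5 and 6 cells. The top cell held 78, 32, 5 and 83 of those UMIs. The log2 ratio was -2.15 (-2.66 to -1.72) for stroke, 2.39 (1.93 to 2.92) for anti-VLA4 and -0.56 for anti-VCAM1, and without the top cell the first pair were -2.53 and 1.89. Without shared barcodes the stroke ratio was -2.33.

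Cxcl9 was scarcer still. Border macrophage-like cells held 139 UMIs in sham isotype, all in 1 cell, 144 in 3 cells of stroke isotype, 0 in anti-VCAM1 and 142 in 6 cells of anti-VLA4. Dendritic-like cells held 11, 500, 0 and 2 UMIs, and 316 of the 500 were in 1 cell. The stroke ratio in border macrophage-like cells was -0.50, and 5.54 without the top cell, so its direction rested on that cell. No order of libraries is read from Cxcl9.

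Microglia-like cells had Cxcl10 at 38.1, 28.2, 11.2 and 28.8 CPM, from 15, 45, 23 and 30 cells with a top cell of 63, 73, 20 and 117 UMIs. Its stroke ratio of -0.42 (-0.71 to -0.16) was 0.54 after thinning and 0.04 without shared barcodes. The anti-VCAM1 ratio was -1.26 (-1.67 to -1.01), or -0.38 after thinning, and the anti-VLA4 ratio 0.03 (-0.20 to 0.26). In endothelial-like cells of anti-VLA4 a single cell held 44 of the 81 Cxcl10 UMIs, and a further 34 UMIs lay in cluster 6. Anti-VLA4 was above stroke isotype in 2 of the 2 clusters measured, by log2 3.70 and 4.09.

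Cxcl12, the ligand of CXCR4, was the member that endothelial-like cells held at the highest level. Endothelial-like cells had 4214 CPM (4124 to 4305) in sham isotype, 5398 (5302 to 5495) in stroke isotype, 5570 (5520 to 5621) in anti-VCAM1 and 6126 (6082 to 6172) in anti-VLA4. Each library was above the one before in that order, with no overlap of counting intervals. The stroke ratio on the log2 scale was 0.36 (0.32 to 0.40), the anti-VCAM1 ratio 0.045 (0.016 to 0.074) and the anti-VLA4 ratio 0.18 (0.15 to 0.21), all below the fold of 1. The thinned share of cells with a UMI was 84.5%, 90.7%, 93.2% and 94.7%, against 92.9%, 96.2%, 97.3% and 98.4% before thinning.

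Stroke isotype was above sham isotype for Cxcl12 in 5 of 5 endothelial-like clusters, by log2 0.03 to 0.44, and by 0.33 with the cluster mix fixed. Anti-VLA4 was above stroke isotype in 4 of 5 clusters, by 0.10 with the mix fixed. Anti-VCAM1 was above it in 2 of 5, and stood at -0.005 with the mix fixed, so its step over stroke isotype was not seen there. Cluster 14 had the lowest Cxcl12, at 700, 716, 1423 and 1952 CPM, against 4276 to 5469 CPM in cluster 1. The unnamed cluster led by Gkn3 and Stmn2 had 3720, 4635, 4335 and 4491 CPM. Pericyte-like cells (10, 13, 56 and 91 cells) had 404, 798, 1687 and 2783 CPM, the first from 13 UMIs.

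Astrocyte-like cells (5, 23, 31 and 42 cells) had Cxcl12 at 746, 434, 1175 and 1687 CPM, in 1, 2, 8 and 15 cells with a UMI. The levels in astrocyte-like and pericyte-like cells were not set against endothelial markers, so the part of endothelial RNA in them is not known. In microglia-like and border macrophage-like cells its differences stood beside endothelial markers. Microglia-like cells had 2.15, 2.16, 16.6 and 19.4 CPM, which was 0.0510%, 0.0400%, 0.297% and 0.317% of the endothelial-like level. The endothelial markers had medians of 0.0764%, 0.111%, 0.463% and 0.374% there, so Cxcl12 was at or below the background of endothelial RNA and its ratios of 2.47 and 2.69 are not read as expression by microglia-like cells. In border macrophage-like cells Cxcl12 was at 3.45, 9.38, 41.0 and 560 CPM, from 3, 12, 18 and 297 UMIs, the last in 11 cells. Endothelial markers summed to 63.3, 43.0, 341 and 1917 CPM in the same cells. In anti-VLA4, Cxcl12 stood at 9.14% of its endothelial-like level there, within the 5.09% to 10.06% range of the single endothelial markers, so the ratio of 5.76 (5.07 to 6.87) is not read as expression by border macrophage-like cells either.

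Cxcl16, the CXCR6 ligand, did not pass the fold of 1 in any comparison of a class where it was measured. Border macrophage-like cells had 221, 238, 223 and 287 CPM and microglia-like cells 43.0, 55.4, 53.5 and 50.8 CPM. The log2 ratio in border macrophage-like cells was 0.11 (-0.15 to 0.38) for stroke, or -0.08 without shared barcodes, -0.10 for anti-VCAM1 and 0.26 for anti-VLA4. In microglia-like cells it was 0.36 (0.13 to 0.60) for stroke, but -0.01 after thinning, and -0.05 and -0.12 (-0.29 to 0.05) for the antibodies. Dendritic-like cells also held it, at 138, 199, 292 and 157 CPM. The thinned share in border macrophage-like cells was 19.5%, 17.4%, 12.9% and 15.1%, against 0% to 0.457% in endothelial-like cells.

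**Figure D5:**
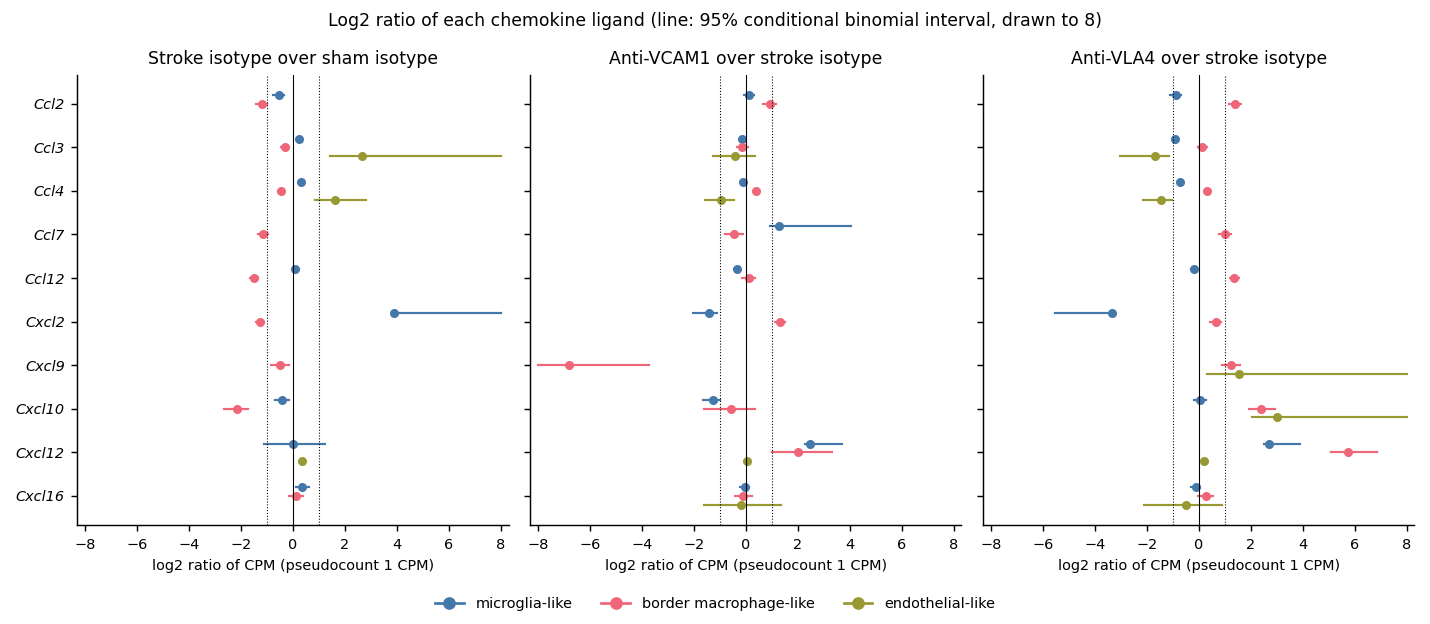
Log2 ratio of each ligand by class for stroke isotype over sham isotype, anti-VCAM1 over stroke isotype and anti-VLA4 over stroke isotype, with 95% counting intervals. In border macrophage-like cells Ccl2, Ccl7, Ccl12 and Cxcl10 lie below -1 for stroke and above 1 for anti-VLA4, while microglia-like Ccl3 and Ccl4 lie at -0.91 and -0.74 for anti-VLA4.

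Counts of members past a log2 ratio of 1, among those with at least 20 UMIs, were read against all genes measured the same way. Of the members measured in border macrophage-like cells, 5 of 9 were lower in stroke isotype than in sham isotype and none higher, where 2.23% of all genes were lower and 4.63% passed in either direction. The 5 were Ccl2, Ccl7, Ccl12, Cxcl2 and Cxcl10. For anti-VLA4, 6 of 10 were higher and none lower, where 3.87% of all genes were higher and 9.07% passed in either direction. The 6 were Ccl2, Ccl7, Ccl12, Cxcl9, Cxcl10 and Cxcl12, with Cxcl9 at 1.24, or 0.42 without its top cell, and Cxcl12 at the level of endothelial markers in those cells. For anti-VCAM1, 3 of 10 passed, where 7.6% of all genes did: Cxcl2 and Cxcl12 were higher, the latter at 2.02 or 0.21 without its top cell, and Cxcl9 was lower, with 0 UMIs against 144. The median ratio over the members was -1.16 for stroke, 0.00 for anti-VCAM1 and 1.13 for anti-VLA4.

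In microglia-like cells few members passed. For stroke it was 1 of 8, Cxcl2, where 1.21% of all genes passed, and the median was 0.17. For anti-VCAM1 it was 4 of 9, Ccl7, Cxcl2, Cxcl10 and Cxcl12, where 0.922% passed, and the median was -0.10. For anti-VLA4 it was 2 of 8, Cxcl2 and Cxcl12, where 0.874% passed, and the median was -0.47. Most of these rested on single cells or lay at the level of endothelial RNA, as given above. Without the top cell Ccl7 in anti-VCAM1, with 27 against 5 UMIs, was at 0.92, and Cxcl2 in anti-VLA4, at -3.33, was at -1.16.

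In endothelial-like cells 2 of 3 passed for stroke (2.64% of all genes), 0 of 4 for anti-VCAM1 (2.7%) and 4 of 6 for anti-VLA4 (3.38%). Ccl3 and Ccl4 accounted for the stroke pair, from 1 and 12 UMIs in sham isotype to 19 and 46 in stroke isotype. In stroke isotype they stood at 1.53% and 1.26% of their microglia-like level, below the 2.54% median of the microglial markers there. In sham isotype they stood at 0.107% and 0.453%, on either side of the 0.355% median. In anti-VCAM1 they stood at 1.21% and 0.659%, on either side of the 0.792% median. For anti-VLA4 the 4 were Ccl3 at -1.67, Ccl4 at -1.47, Cxcl9 at 1.56 and Cxcl10 at 2.99. In that library Ccl3 and Ccl4 stood at 0.67% and 0.69% of their microglia-like level, below the 0.84% marker median. The part of microglial RNA in the Ccl3 and Ccl4 ratios of endothelial-like cells was not tested. The Cxcl9 UMIs there lay mainly in 1 cell. Those of Cxcl10 were divided between clusters, with 45 in cluster 0 and 34 in cluster 6. T cell-like cells gave 5 of 5 for stroke (12.1%), 5 of 5 for anti-VCAM1 (7.26%) and 4 of 5 for anti-VLA4 (7.06%). Ccl2 in that class turned on 1 cell, which held 28 of 29 UMIs in sham isotype, and its stroke ratio of -2.29 was 3.41 without shared barcodes.

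Most of the remaining members had few UMIs in these 2 classes or lay mainly in single cells. T cell-like cells had 0 UMIs of Ccl7 and Cxcl9 in all 4 libraries and 1 to 5 UMIs of Cxcl16. Cxcl2 was at 8, 44, 0 and 8 UMIs there, with 39 of the 44 in 1 cell, and Cxcl12 at 1, 5, 40 and 17, with 38 of the 40 in 1 cell. Cxcl10 was the exception, at 0, 49, 7 and 13 UMIs, the 49 in 12 cells with a top cell of 22. Its 39.2 CPM in stroke isotype was above the 28.2 CPM of microglia-like cells. Endothelial-like cells had 1 or 2 UMIs of Cxcl2 in each library and 0, 1, 18 and 38 of Cxcl9, with 37 of the 38 in 1 cell. A B cell-like cell of anti-VLA4 held 199 Ccl3 and 301 Ccl4 UMIs.

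Among other chemokine genes, other ligands had other sources. Ccl5, a chemokine of cytotoxic T cells, was at 4274 CPM in T cell-like cells over all libraries. Ccl6, a myeloid ligand, was at 626 CPM in neutrophil-like, 178 in border macrophage-like and 108 in microglia-like cells. Cx3cl1, the ligand of Cx3cr1, was at 33.1 CPM in endothelial-like cells. Of the receptors, Cx3cr1 was at 2425 CPM in microglia-like cells. Ackr3 was at 51.6 CPM in endothelial-like cells, the class of highest Cxcl12. In microglia-like cells 0 of 7, 0 of 9 and 0 of 10 measured receptors passed the fold of 1 for stroke, anti-VCAM1 and anti-VLA4. Other ligands gave 1 of 8, 1 of 9 and 1 of 9 there. Border macrophage-like cells gave 2 of 8, 2 of 8 and 5 of 9, and for anti-VLA4 the larger ratios were those of Ccl8 at 2.14 (1.75 to 2.57), a ligand of the same chromosome 11 group, and Ccl24 at 1.44 (1.11 to 1.79).

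Lists of genes often read with chemokines were counted in the same cells. The 16 NF-kappaB and cytokine genes had a median ratio of -0.72 in microglia-like cells for anti-VLA4, with 15 of 16 below stroke isotype and 1 past the fold, where the median of all genes was 0.06. Tnf, an inflammatory cytokine, was at -1.16 (-1.27 to -1.07) and Nfkbiz, an NF-kappaB cofactor, at -0.996 (-1.07 to -0.93). In border macrophage-like cells the same list was at -0.19 for anti-VLA4, with 0 past the fold. Dissociation genes, which the enzymatic isolation of brain cells is known to induce, were also lower in the antibody libraries. They summed to 16514, 13743, 10511 and 9153 CPM in microglia-like cells, and for anti-VLA4 14 of 16 were below stroke isotype, at a median of -0.56, with Egr1 at -1.25 (-1.31 to -1.20). Their part in the lower Ccl3 and Ccl4 of anti-VLA4 was not tested.

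The 16 interferon genes were counted in the border macrophage-like class, whose mean Cxcl10 level was the highest of the 4 ranked. Their median ratio was -0.77 for stroke, with 7 past the fold and all lower, -1.91 for anti-VCAM1, with 11 lower and none higher, and 0.67 for anti-VLA4, with 4 higher and none lower. Iigp1, an interferon-induced GTPase, was at -2.09 (-2.60 to -1.65) for stroke and 3.19 (2.77 to 3.69) for anti-VLA4. In microglia-like cells the medians were 0.07, -0.28 and 0.12. The interferon list summed to 3089, 2258, 1361 and 3081 CPM in border macrophage-like cells and 395, 433, 389 and 423 CPM in microglia-like cells.

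Genes with the most similar pattern were taken over 30 pairs of class and library by Pearson's r of log2(CPM + 1). These points share libraries and differ in depth, and r is a description. Ccl7 was closest to Ccl8 (0.99), Cbr2 and Cd209f (0.97 each), Cxcl12 to Palmd, Ramp2 and Fermt2 (0.98 each), and Ccl4 to Gmip (0.94), Bcl2a1b and Fermt3 (0.93 each). Ccl3 was closest to Gmip and Rab20 (0.90 each) and Arrb2 (0.89), and Cxcl16 to H2-DMb1 (0.92), H2-DMa (0.91) and Scpep1 (0.89). For Ccl2 they were Rbpj, Gm5431 and Gm17268 (0.87 each), the last of which overlaps Ccl2 on the other strand. Ccl12 was closest to Npc2 (0.88), P2rx4 (0.87) and Snx5 (0.86), and Cxcl2 to Ifi207 (0.87), F13a1 (0.85) and Lilrb4a (0.84). Cxcl9 (Gm5431 0.78, Ifi205 0.74, Clec10a 0.72) and Cxcl10 (Slfn9 0.69, G530011O06Rik 0.67, 1700003F12Rik 0.65) had the weakest matches. Among the members the closest pair was Ccl3 with Ccl4 (0.96), followed by Ccl2 with Ccl12 (0.79) and Ccl2 with Ccl7 (0.75).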

How the data were processed

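Each deposited matrix held unnormalized UMI counts. Cell Ranger 7.0.1 wrote them, per the file headers, while the submitters' processing notes list Cell Ranger 6.0.0 and Seurat 4.3.0.1 and the builds mm10 and GRCh38. The build of the count run is not given in the sources used here, and printed coordinates are those of GENCODE M21 and RefSeq. The smallest barcode total was 500 to 510 UMIs, so cells had been called before deposit. Samples were grouped by their titles.

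Clustering used scanpy 1.11.5 and leidenalg 0.10.2, intervals scipy 1.17.1, sums pandas 2.3.3 and numpy 2.4.6, and plots matplotlib 3.10.9, in Python 3.11.15. Cells with under 500 UMIs, under 200 genes or over 10% of UMIs from mitochondrial genes were dropped. Scrublet, run per library at an expected rate of 0.05, marked 0.590%, 0.840%, 1.23% and 1.96% as doublets, which were left out. Kept cells were clustered together (2000 variable genes, 30 principal components, 15 neighbours, Leiden resolution 1), without the members, the other listed ligands, the NF-kappaB, interferon and dissociation genes. A cluster took a class name from at least 3 markers found in 25% of its cells and 1 or more higher on the log2 scale than elsewhere, unless other classes led its top 10 genes or a second class had 5 or more markers. Of 22 clusters 3 stayed unnamed.

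UMIs were summed by class and library and scaled to CPM. Levels have exact Poisson intervals. Log2 ratios use a pseudocount of 1 CPM and have conditional binomial intervals computed without it, all at 95%, for classes of 50 or more cells per library. A ratio needed 20 UMIs over both libraries, and the fold was 1 on the log2 scale. The ratios and intervals were also computed on simulated counts drawn with counting error alone. Those counts held no spread among cells or mice, so they cannot show how the ratios behave under either. Shares were taken after thinning to 1000 UMIs per cell. The members and lists were chosen with earlier results of these data known. All members were named, other ligands and receptors with at least 200 UMIs in microglia-like or endothelial-like cells, the 2 largest ratios of each other list among genes with at least 200 UMIs, and the 3 genes most like each member. Ccl8, Ccl24 and the clusters and single cells named were chosen after their values were seen. Alternatives changed resolution, naming, cell filters, doublets, depth, scaling, pseudocount, UMI minimum, fold and the top cell. The tests without shared barcodes and with the Gkn3 and Stmn2 cluster counted as endothelial-like were added after seeing the data.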

Additional observations from a re-analysis of the deposited data

How the results depend on the processing

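No paired analysis was possible because each group was 1 library. Of 820 ratios of members under 10 settings, 648 stayed within the counting interval of the reported ratio, 153 lay outside it and 19 reversed a ratio whose interval excluded 0. The cause of these changes was not tested beyond what each setting removes. In border macrophage-like cells Cxcl9 for stroke became 1.37 at resolution 0.5, 0.36 after thinning and 5.54 without the top cell, and for anti-VLA4 -0.57 at resolution 0.5. Microglia-like Cxcl2 for anti-VCAM1 became 1.82 at resolution 0.5 and 0.27 without the top cell, and for stroke -0.78 with cells named one by one. Microglia-like Cxcl10 for stroke became 0.54 after thinning and 0.036 without shared barcodes, and Cxcl16 -0.010 after thinning. Endothelial-like Cxcl10 for anti-VLA4, 2.99 as reported, became -0.30 at resolution 0.5, -0.38 with cells named one by one, -0.33 under the stricter cell filter and -0.34 with the Gkn3 and Stmn2 cluster added. With cells named one by one, endothelial-like Ccl4 and Cxcl12 for anti-VCAM1 became 0.39 and -0.017. T cell-like Ccl2 for stroke became 1.52 with cells named one by one and 3.41 without shared barcodes, and Cxcl2 -0.15 after thinning.

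Counts of members past the fold stayed within 1.5 times in every setting for stroke and anti-VLA4 in border macrophage-like cells. With cells named one by one, 1 member was highest in microglia-like cells. For stroke in microglia-like cells (1 reported) the count was 0 at 200 UMIs, at resolution 0.5, thinned and without top cells, and 2 with no minimum, at fold 0.5 and named one by one. For stroke in endothelial-like cells (2) it was 0 with pseudocount 10, at 200 UMIs and thinned, 4 with no minimum, and 1 under the stricter filter, without top cells and without shared barcodes. For anti-VCAM1 in microglia-like cells (4) it was 1 with pseudocount 10 and 2 at 200 UMIs, thinned and without top cells. For anti-VCAM1 in endothelial-like cells (0) it was 2 with no minimum, at resolution 0.5 and under the stricter filter, and 1 at fold 0.5, named one by one, with doublets kept, thinned and with the added cluster. For anti-VLA4 in microglia-like cells (2) it was 1 at 200 UMIs and without top cells, and 5 at fold 0.5. For anti-VLA4 in endothelial-like cells (4) it was 0 with pseudocount 10 and at 200 UMIs, and 2 thinned. For anti-VCAM1 in border macrophage-like cells (3) it was 1 at 200 UMIs and 5 at fold 0.5. In T cell-like cells the stroke count (5) was 3 with pseudocount 10, without top cells and without shared barcodes, 2 named one by one, and 1 at 200 UMIs and thinned. The anti-VCAM1 count there (5) was 1 at 200 UMIs and thinned and 3 without top cells, and the anti-VLA4 count (4) was 2 with pseudocount 10 and named one by one, 0 at 200 UMIs and thinned, and 1 without top cells.

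With 1 pooled library per group the spread among mice is unknown, and depth limits the scarce ligands: Cxcl9 and Cxcl10 came from a few cells per class.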
